A study of Mus musculus with 4 samples.

Results

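Collagen is modified by enzymes and escorted by a chaperone inside the cell and is crosslinked outside it, and 10 genes of this machinery were followed in ZBP1-depleted mouse bone marrow-derived mesenchymal stem/progenitor cells (mBMSCs). They are the lysyl oxidases Lox, Loxl1, Loxl2 and Loxl3, the prolyl 4-hydroxylase alpha subunits P4ha1 and P4ha2, the lysyl hydroxylases Plod1, Plod2 and Plod3, and the collagen chaperone Serpinh1. The genes were chosen by their function, with earlier results of these data known. They were taken as the rows of the expression table that carry these symbols, and all 10 were found among 24346 rows. The cells came from the marrow of C57BL/6 mice aged 3 months and were transfected with Lipofectamine RNAiMAX, either with a scramble control siRNA (siScr) or with an siRNA against ZBP1 (siZBP1), and RNA was collected 72 h later. Each group held 2 samples, named siScr 1 and 2 and siZBP1 1 and 2 after the replicate numbers of the labels. Both groups carried an siRNA and the transfection reagent, and the labels do not give which of the study's siRNAs against ZBP1 was used, so that an effect of lower ZBP1 and another action of the siRNA cannot be told apart.

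Hydroxylation and crosslinking follow each other along the path of a collagen chain. In the endoplasmic reticulum, prolyl 4-hydroxylases modify proline residues, which keeps the collagen helix stable at body temperature, and lysyl hydroxylases modify lysine residues, which later serve as sites for sugars and for crosslinks. Serpinh1, also called Hsp47, binds the folded procollagen in the same compartment and escorts it on its way to the Golgi. After secretion and trimming, lysyl oxidases, which need copper, oxidise lysine and hydroxylysine residues of collagen and elastin, and the aldehydes formed join neighbouring molecules. Osteoblasts and their precursors use this machinery heavily, because bone matrix is mostly type I collagen.

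Expression is given as FPKM, the count of sequenced fragments scaled to transcript length and to library size, so that levels of different genes can be set side by side. Differences between groups were tested with limma, a linear model per gene that borrows variance information across genes, on log2(FPKM + 1). The 11959 genes whose mean reached 1 FPKM were tested, all 10 genes among them, and the Benjamini-Hochberg adjustment ran over every tested gene, with 0.05 as the threshold. A log2 fold change is siZBP1 minus siScr on this scale and is followed by its standard error. The labels do not say whether the samples of a group came from separate cultures, so the p-values measure the spread between these samples, which may be technical.

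The targeted gene followed the labels. Zbp1, a sensor of Z-form nucleic acids, was at 86.0 and 62.0 FPKM in the siScr samples and at 11.5 and 11.6 FPKM in the siZBP1 samples. The log2 fold change was -2.56 ± 0.16 (limma adjusted p = 0.00322), with adjusted p-values of 0.0748 without siZBP1 replicate 1 and 0.0654 without siZBP1 replicate 2. Read numbers are not given, and from the spacing of the lowest values the depth relative to siZBP1 1 was 1.40 and 1.86 for siScr 1 and 2 and 1.62 for siZBP1 2. Mesenchymal and macrophage markers were both present. Of 12 mesenchymal markers, 11 reached a mean of 1 FPKM, at widely different levels. Vimentin (Vim) was at 1352 to 1418 FPKM in all 4 samples, Pdgfra at 1.31 to 3.97 FPKM and Thy1 at 1.48 to 4.49 FPKM. All 14 macrophage markers were detected as well, with Lyz2 at 2814 to 5871 FPKM. Of 4 adipocyte markers Fabp4 was at 91.2 to 114 FPKM, Adipoq stayed under 1 FPKM and Plin1 and Cidec were listed at 0 in every sample. Of 5 endothelial markers Kdr was highest, at 2.30 to 3.08 FPKM, and Pecam1, Cdh5, Tek and Emcn averaged under 1 FPKM over the 4 samples. The summed FPKM of the macrophage markers was 8288 and 9261 in the siScr samples and 13594 and 12878 in the siZBP1 samples. In such bulk RNA, fewer cells of a type and less RNA per cell cannot be told apart.

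The collagen machinery moved in both directions (the plot of levels in the 4 samples shows all values). Of the 10 genes, 6 were lower in siZBP1 cells by limma (Serpinh1, Loxl1, Loxl3, Plod3, P4ha1 and Lox), against 14.8% of all genes tested. The genes P4ha2, Plod2 and Plod1 were higher, which makes 3 of 10 against 13.5% of all genes tested. Among the 8936 genes that averaged 5 FPKM or more, which all 10 genes exceed, those shares were 17.2% and 17.6%. Loxl2 alone did not pass the threshold. Values of the groups did not overlap for the same 6 genes in the lower direction, against 33.7% of all genes tested, and for the same 3 in the higher direction, against 34.7%. By the ratio of the group means, the criterion the study used, Serpinh1, Loxl1 and Loxl3 were lower by over 1.5-fold, which is 3 of 10 against 13.8% of the 16281 genes with values in both groups. None of the 10 was higher by over 1.5-fold, against 10.7% of those genes, so the other 6 genes that passed the limma threshold changed by less than that. Behind the shares of 13.8% and 10.7% are 2249 and 1750 genes. Of these, 1035 and 503 were among the 11959 genes that averaged 1 FPKM or more, as all 10 genes do. Over the 10 genes the log2 fold change had a median of -0.21, compared with 0.0045 over every gene tested.

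**Figure D1:**
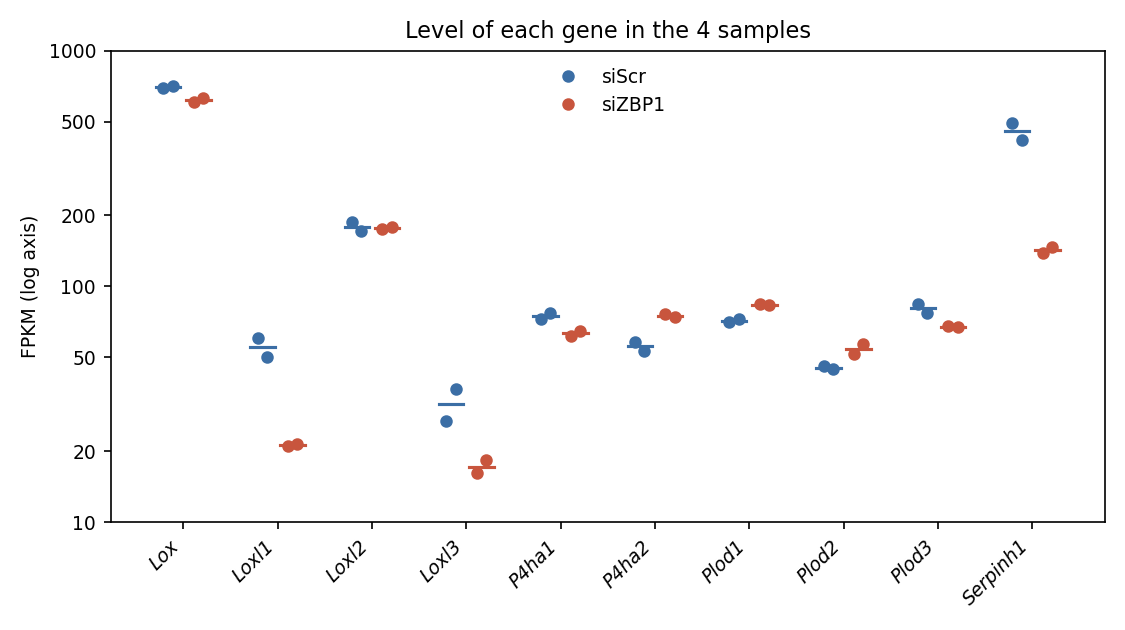
Level of each gene in FPKM (log axis) in the 2 siScr samples (blue) and the 2 siZBP1 samples (red); points are samples and short lines are group means. Serpinh1 and Loxl1 show the widest separation between groups, the values of Loxl2 overlap, and P4ha2, Plod1 and Plod2 sit higher in siZBP1 cells.

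Serpinh1 had the largest difference. This chaperone, encoded by the minus strand of chromosome 7 (GRCm38, 99345376 to 99353239), recognises the collagen helix and is found wherever fibrillar collagen is made. Its level was 492 and 418 FPKM in the siScr samples and 138 and 147 FPKM in the siZBP1 samples. Both siZBP1 values lay far under both siScr values, and the siScr samples differed more from each other than the siZBP1 samples did. Group means were 455 ± 52.7 and 143 ± 6.30 FPKM (SD, n = 2 each), a ratio of 3.19-fold, and the log2 fold change was -1.66 ± 0.091 (limma adjusted p = 0.00268). In siScr cells Serpinh1 was second only to Lox among the 10 genes, and in siZBP1 cells it was behind both Lox and Loxl2.

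The lysyl oxidases differed widely in how far they moved. Lox, the founding enzyme of the family, spans bases 52516067 to 52529867 of chromosome 18 and had the highest level of the 10 genes in every sample. It was at 696 and 710 FPKM in the siScr samples and at 608 and 633 FPKM in the siZBP1 samples. The groups did not overlap, with a ratio of the means of 0.882 (siZBP1 over siScr) and a log2 fold change of -0.18 ± 0.044 that passed the threshold narrowly (limma adjusted p = 0.0437). This call was lost with quantile normalization, which moved the log2 fold change to -0.046 (limma adjusted p = 0.617), with no filter on low values (adjusted p = 0.0886) and with no variance trend (adjusted p = 0.0926), and in all 4 fits that left out a sample (adjusted p from 0.086 to 0.302).

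Loxl1, the family member best known for its part in elastic fibres, is encoded on chromosome 9 from 58287738 to 58313186. Its level was 60.6 and 50.3 FPKM in the siScr samples and 21.0 and 21.5 FPKM in the siZBP1 samples. The siZBP1 samples were nearly equal and both well under the control range. Means of 55.4 ± 7.28 and 21.3 ± 0.396 FPKM (SD, n = 2 each) gave a ratio of 2.61-fold and a log2 fold change of -1.34 ± 0.097 (limma adjusted p = 0.00377).

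Loxl3, which lies on chromosome 6 from 83034173 to 83052562, had the lowest level of the 10 genes in every sample. It was at 26.7 and 36.9 FPKM in the siScr samples and at 16.1 and 18.3 FPKM in the siZBP1 samples. Here the siScr samples stood far apart, yet both were above the siZBP1 samples. The log2 fold change was -0.84 ± 0.16 (limma adjusted p = 0.0260). Exons of Htra2, a gene on the opposite strand, cover 11.6% of the exonic bases of Loxl3 in GENCODE M21, and since counting by strand is not stated, part of the reads cannot be assigned between them. Htra2 itself was at 22.8 and 23.4 FPKM in the siScr samples and at 21.2 and 19.7 FPKM in the siZBP1 samples.

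Loxl2, which crosslinks the collagen IV of basement membranes among other substrates, lies on chromosome 14 from 69609068 to 69695834. Its level was 188 and 171 FPKM in the siScr samples and 175 and 178 FPKM in the siZBP1 samples. The siZBP1 values lay inside the siScr range. The log2 fold change was -0.022 with a 95% confidence interval from -0.17 to 0.13 (limma adjusted p = 0.808), and its sign turned with quantile normalization (0.0078) and without siScr replicate 1 (0.044).

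**Figure D2:**
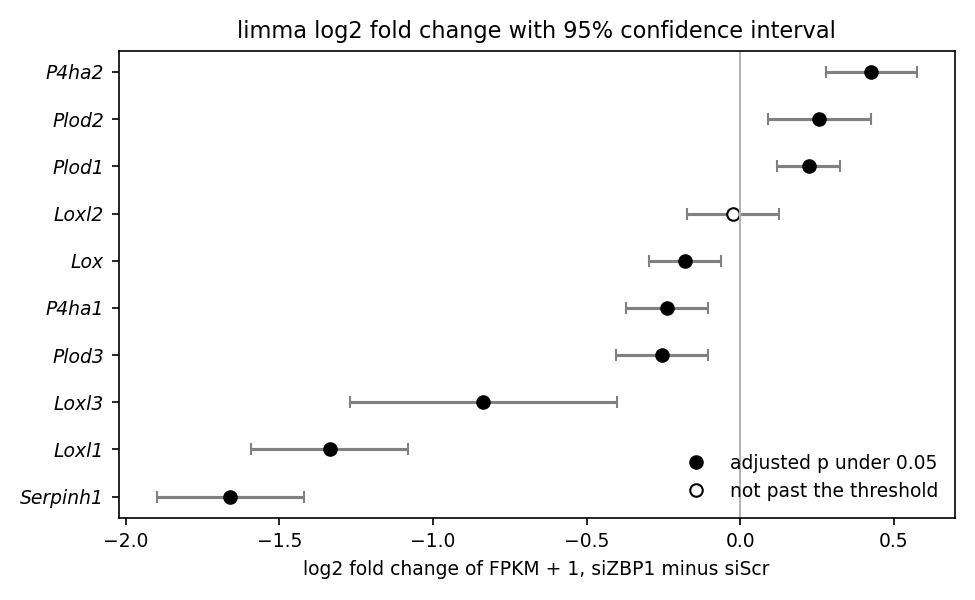
Log2 fold change of FPKM + 1, siZBP1 minus siScr, of the 10 genes by limma, with 95% confidence intervals (n = 2 samples per group); filled points passed the adjusted p threshold of 0.05. Serpinh1 (-1.66), Loxl1 (-1.34) and Loxl3 (-0.84) stand apart from the other 7 genes, which lie between -0.25 and 0.43.

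Both prolyl 4-hydroxylase alpha subunits changed, in opposite directions. These subunits carry the active site, and each pairs with P4hb, a disulfide isomerase, to form the enzyme. P4ha1, on chromosome 10 from 59323296 to 59373304, was at 72.8 and 76.8 FPKM in the siScr samples and at 61.8 and 64.8 FPKM in the siZBP1 samples. The groups did not overlap, and the log2 fold change was -0.24 ± 0.050 (limma adjusted p = 0.0305). With no variance trend its adjusted p was 0.0676. P4ha2, on chromosome 11 from 54100095 to 54131665, was at 58.1 and 53.3 FPKM in the siScr samples and at 76.0 and 74.3 FPKM in the siZBP1 samples. Both siZBP1 values were above both siScr values, with a log2 fold change of 0.43 ± 0.056 (limma adjusted p = 0.0103), the largest rise among the 10 genes.

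P4ha1 had the higher level in siScr cells and P4ha2 in siZBP1 cells. P4ha2 made up 44.4% and 40.9% of the summed FPKM of P4ha1 and P4ha2 in the siScr samples and 55.2% and 53.4% in the siZBP1 samples. The ratio of P4ha2 to P4ha1 was 0.746 ± 0.0742 and 1.19 ± 0.0593 (SD, n = 2 each). Their sum was 130 ± 0.524 FPKM in siScr cells and 138 ± 0.939 FPKM in siZBP1 cells (SD, n = 2 each). An exact permutation test of such a single value has a smallest two-sided p of 0.33 when each group holds 2 samples, and it gave that value here, so these shares are descriptions.

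The lysyl hydroxylases also split. Plod1, on chromosome 4 from 147909753 to 147936767, hydroxylates mainly lysines of the collagen helix. It was at 70.6 and 72.6 FPKM in the siScr samples and at 84.1 and 83.4 FPKM in the siZBP1 samples. The samples of each group lay close together and the groups did not overlap, with a log2 fold change of 0.22 ± 0.039 (limma adjusted p = 0.0195), and with no variance trend the adjusted p was 0.0553.

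Plod2, on chromosome 9 from 92542223 to 92608428, acts on lysines of the telopeptides, the short ends outside the helix where crosslinks start. It was at 45.8 and 44.7 FPKM in the siScr samples and at 51.5 and 57.3 FPKM in the siZBP1 samples. The groups did not overlap, although the siZBP1 samples differed from each other by about as much as the lower one differed from the controls. The log2 fold change of 0.26 ± 0.064 (limma adjusted p = 0.0443) did not pass with no filter on low values (adjusted p = 0.0614) or with no variance trend (adjusted p = 0.0805).

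Plod3, on chromosome 5 from 136987019 to 136996648, adds sugars to hydroxylysine besides its hydroxylase activity. It was at 84.4 and 77.0 FPKM in the siScr samples and at 67.7 and 67.3 FPKM in the siZBP1 samples. Both siZBP1 values were lower, with a log2 fold change of -0.25 ± 0.057 (limma adjusted p = 0.0352), and the adjusted p was 0.0711 with no variance trend. Exons of Znhit1 on the opposite strand cover 11.7% of its exonic bases, and Znhit1 was at 23.7 and 19.7 FPKM in the siScr samples and at 25.0 and 25.1 FPKM in the siZBP1 samples.

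The make-up of the other families also differed between the groups. The summed FPKM of Plod1, Plod2 and Plod3 was 198 ± 4.59 in siScr cells and 206 ± 3.27 in siZBP1 cells (SD, n = 2 each). Plod3 held the largest share of that sum in siScr cells, with 42.1% and 39.6%, and Plod1 held the largest in siZBP1 cells, with 41.4% and 40.1%. The share of Plod2 was 22.8% and 23.0% in the siScr samples and 25.3% and 27.5% in the siZBP1 samples. For the lysyl oxidases, Lox dominated the sum of Lox, Loxl1, Loxl2 and Loxl3 in all samples, with 71.7% to 74.4%. Loxl1 made up 6.24% and 5.19% of that sum in the siScr samples and 2.56% and 2.53% in the siZBP1 samples, while the share of Loxl2 was 19.3% and 17.7% against 21.3% and 20.9%. The summed FPKM of the lysyl oxidases was 969 ± 1.88 and 835 ± 21.9 (SD, n = 2 each).

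**Figure D3:**
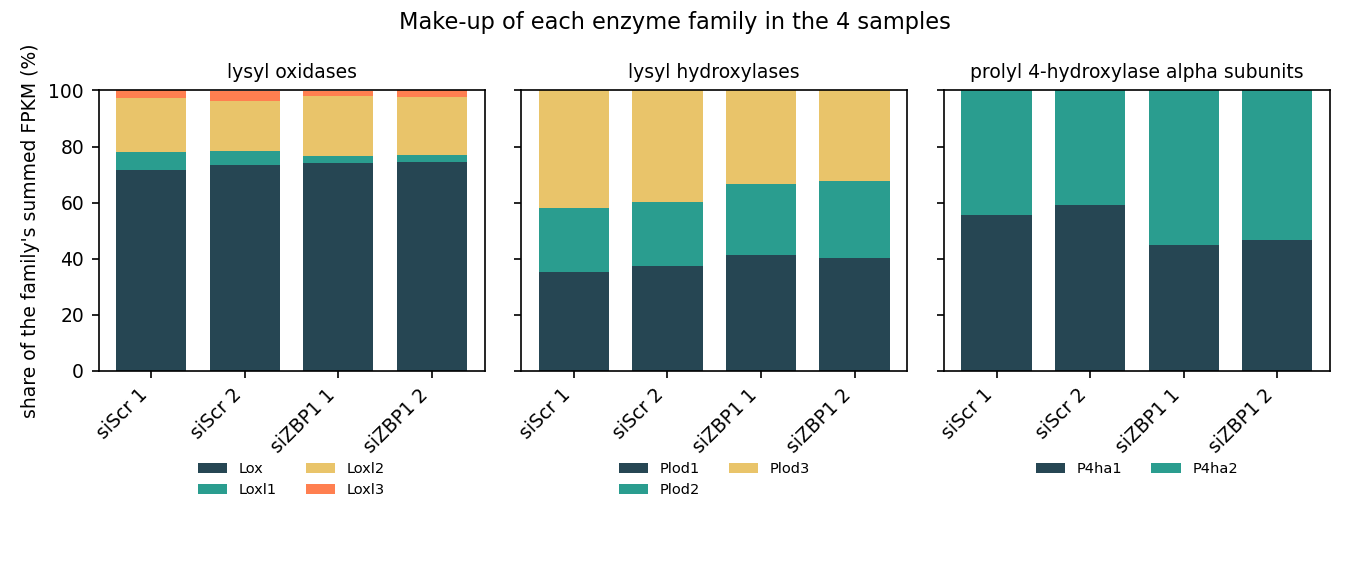
Share of each gene in the summed FPKM of its family (percent, stacked bars) in each of the 4 samples. P4ha2 takes over 50% of its pair only in the siZBP1 samples (55.2% and 53.4%), Plod1 exceeds Plod3 only there, and the share of Loxl1 is smaller in both siZBP1 samples.

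The order of the levels changed accordingly. In siScr cells it ran from Lox (703 FPKM) through Serpinh1 (455), Loxl2 (179), Plod3 (80.7), P4ha1 (74.8), Plod1 (71.6), P4ha2 (55.7), Loxl1 (55.4) and Plod2 (45.2) to Loxl3 (31.8), as mean FPKM. In siZBP1 cells the mean FPKM ran from Lox (620) through Loxl2 (176), Serpinh1 (143), Plod1 (83.7), P4ha2 (75.2), Plod3 (67.5), P4ha1 (63.3), Plod2 (54.4) and Loxl1 (21.3) to Loxl3 (17.2). The values of neighbours overlapped only for P4ha2 and Loxl1 in siScr cells, and for no pair of neighbours in siZBP1 cells.

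The calls, more than the log2 fold changes, depended on which samples were kept, as a fit with a lone sample takes its spread from the other group. With siZBP1 replicate 1 left out, 0 of the 10 genes passed the adjusted limma threshold, although 6 had an unadjusted p under 0.05 (3 lower and 3 higher, against 14.5% and 12.3% of all genes tested), and the lowest adjusted p was 0.0748, for Serpinh1. Without siZBP1 replicate 2 the count was also 0, with 7 genes at an unadjusted p under 0.05 (4 lower and 3 higher, against 15.5% and 14.2%) and a lowest adjusted p of 0.0639, again for Serpinh1. In those fits the whole table kept few calls, 23 lower and 22 higher genes in the first and 38 and 22 in the second. Without siScr replicate 1, 3 of the 10 genes were called lower (Serpinh1, Loxl1 and Loxl3) and 1 higher (P4ha2), and without siScr replicate 2 Plod3 and Plod1 joined them. The log2 fold changes themselves moved less, from -1.78 to -1.54 for Serpinh1 and from -1.47 to -1.20 for Loxl1 over the 4 samples left out, and from -1.06 to -0.61 for Loxl3.

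Chromosomal sequence before the transcription start was at hand for 5 of the 10 genes, P4ha1, P4ha2, Plod1, Plod3 and Serpinh1, in a table of RefSeq promoters on GRCm38.p6. The 250 bases before the start are printed for Serpinh1, which fell most, and for P4ha1 and P4ha2, whose levels moved apart. Each is written 5′ to 3′ on the strand of the gene. Capitals mark matches on either strand to a core of the hypoxia response element (ACGTG or GCGTG) or to a heat shock element (GAANNTTC or TTCNNGAA), where N is any base. Serpinh1 is at chr7:99353240-99353489 on the minus strand, P4ha1 at chr10:59323046-59323295 and P4ha2 at chr11:54100674-54100923, both on the plus strand. In GENCODE M21 the windows of Serpinh1 and P4ha1 lie directly before the gene, and that of P4ha2 lies within the gene, behind its annotated start.
Serpinh1: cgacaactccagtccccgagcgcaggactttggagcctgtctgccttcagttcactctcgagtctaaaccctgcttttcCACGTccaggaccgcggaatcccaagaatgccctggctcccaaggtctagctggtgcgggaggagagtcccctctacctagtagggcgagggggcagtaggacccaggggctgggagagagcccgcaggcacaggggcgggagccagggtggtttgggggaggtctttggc
P4ha1: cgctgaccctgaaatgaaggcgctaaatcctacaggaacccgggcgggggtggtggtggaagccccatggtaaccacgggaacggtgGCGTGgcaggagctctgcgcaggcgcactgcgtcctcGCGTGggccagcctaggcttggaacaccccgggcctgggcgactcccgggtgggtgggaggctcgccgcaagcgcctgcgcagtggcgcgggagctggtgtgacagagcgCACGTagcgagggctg
P4ha2: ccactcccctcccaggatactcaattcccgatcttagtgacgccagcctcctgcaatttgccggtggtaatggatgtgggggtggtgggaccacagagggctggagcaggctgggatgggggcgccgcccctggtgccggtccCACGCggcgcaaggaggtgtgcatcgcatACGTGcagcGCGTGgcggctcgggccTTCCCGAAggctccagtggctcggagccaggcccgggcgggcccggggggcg

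P4ha1 and P4ha2 each held 3 hypoxia cores. Those of P4ha1 start 163, 126 and 16 bases before the transcription start and those of P4ha2 start 107, 78 and 69 bases before it. The Serpinh1 window held 1 hypoxia core, 171 bases before the start, and no heat shock element within these letters, and P4ha2 held 1 heat shock element 52 bases before the start. Of the 2 windows not printed, that of Plod3 held 4 hypoxia cores and that of Plod1 held 1, and neither held a heat shock element. Of 32851 promoter windows of the same length, 38.6% held at least 1 hypoxia core and 12.8% at least 1 heat shock element. A core of the TCF/LEF site, recognised by the factors that bind β-catenin and searched on both strands as CTTTGAA, as CTTTGAT, as CTTTGTA and as CTTTGTT, was found in none of these 3 windows, against 14.8% of all windows, and of the other 2 genes Plod3 held 1. A match describes the letters and is not evidence of binding.

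The substrates of these enzymes did not fall as a block. Of 11 fibrillar collagen chains, 9 were tested, of which 2 were lower and 2 higher, against 14.8% and 13.5% of all genes tested. Their median was -0.095 on the log2 scale, and its sign turned among chains averaging 5 FPKM or more (0.123) and without siScr replicate 1 (0.0111). Col1a1, the major chain of type I collagen, was at 3066 and 2520 FPKM in the siScr samples and at 1128 and 1191 FPKM in the siZBP1 samples, with a log2 fold change of -1.26 ± 0.11 (limma adjusted p = 0.00480). Its partner Col1a2 was at 2092 and 1806 FPKM in the siScr samples and at 1829 and 1811 FPKM in the siZBP1 samples and did not pass (limma adjusted p = 0.450). Col2a1, the cartilage collagen, was also lower, at low levels of 5.41 and 2.50 FPKM in the siScr samples and 0.0749 and 0.0827 FPKM in the siZBP1 samples. Col5a3 and Col5a2, chains of the type V collagen that controls fibril diameter, were higher, with log2 fold changes of 0.87 and 0.40. Of these, Col5a3 was low too, at 4.32 and 3.54 FPKM in the siScr samples and 7.99 and 7.97 FPKM in the siZBP1 samples. Col5a1, another chain of type V collagen, went the other way without passing the threshold. It was at 332 and 266 FPKM in the siScr samples and at 223 and 228 FPKM in the siZBP1 samples. Its log2 fold change was -0.40 (limma adjusted p = 0.0614).

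Relative to the summed FPKM of these collagens, Serpinh1 went the other way from the sums of the enzyme families, though not from every enzyme. The sum of the 11 chains was 6194 and 5198 FPKM in the siScr samples and 3966 and 4012 FPKM in the siZBP1 samples. Serpinh1 was at 79.5 and 80.4 FPKM per 1000 FPKM of collagen chains in the siScr samples and at 34.9 and 36.7 in the siZBP1 samples, a 2.23-fold lower mean per collagen in siZBP1 cells. The lysyl oxidases per 1000 FPKM of collagen chains were at 157 and 186 in the siScr samples and at 207 and 212 in the siZBP1 samples, the lysyl hydroxylases at 32.4 and 37.4 against 51.2 and 51.8, and the alpha subunits at 21.1 and 25.0 against 34.7 and 34.7. On this scale Serpinh1 was lower, and the sum of each enzyme family higher, in both siZBP1 samples. The exact permutation p was 0.33 (two-sided) for each, the smallest this design allows. The sum of the lysyl oxidases, mostly Lox, hides members that went the other way. The group means of Loxl1 and Loxl3 fell by over 1.5-fold, which is more than the summed chains fell. Each of the other enzymes rose, or fell by less than the summed chains. Levels of single enzymes per collagen were not tested. The higher values of the family sums rest on Col1a1 in the divisor. Per 1000 FPKM of the other chains, in a calculation added after the values were seen, the lysyl oxidases were at 310 and 362 in the siScr samples and at 289 and 302 in the siZBP1 samples, a ratio of the means of 0.879 instead of 1.22. The lysyl hydroxylases (64.2 and 72.6 against 71.6 and 73.7) and the alpha subunits (41.8 and 48.6 against 48.6 and 49.3) then differed by less than the siScr samples did from each other. Serpinh1 was at 157 and 156 against 48.8 and 52.2, lower with either divisor.

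**Figure D4:**
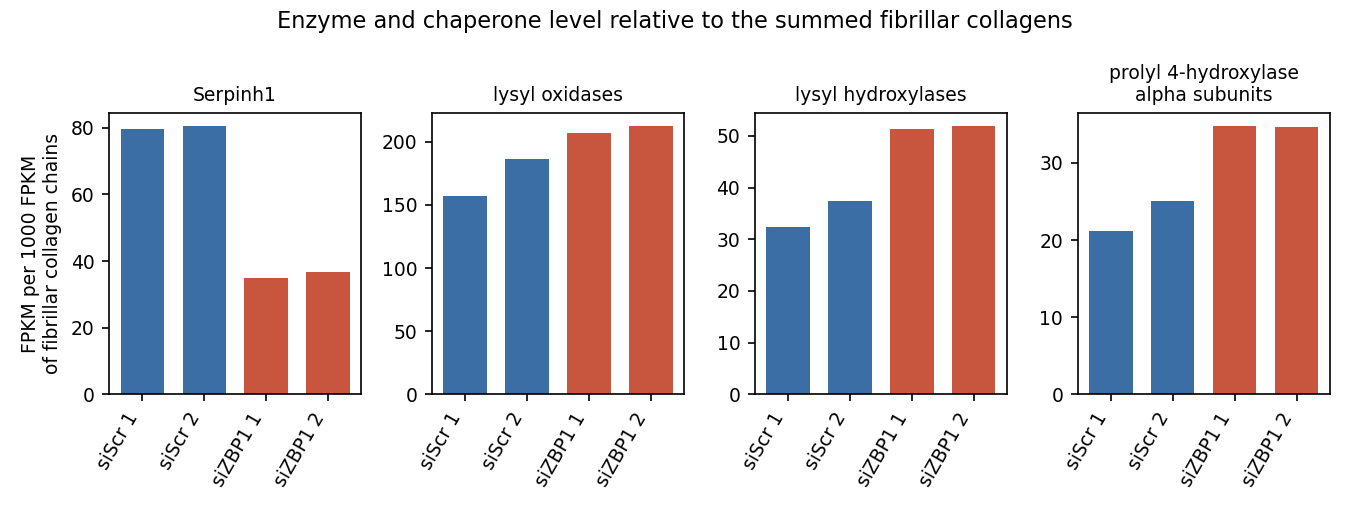
FPKM per 1000 FPKM of the 11 fibrillar collagen chains for Serpinh1 and for the summed lysyl oxidases, lysyl hydroxylases and prolyl 4-hydroxylase alpha subunits, as bars from 0 for each of the 2 siScr samples (blue) and the 2 siZBP1 samples (red). Serpinh1 is at 79.5 and 80.4 in the siScr samples and at 34.9 and 36.7 in the siZBP1 samples. The sum of each enzyme family is higher in both siZBP1 samples, which for the lysyl oxidases turns when Col1a1 is left out of the chains.

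Other genes of collagen maturation were read from a list of 23, of which 19 were tested. Of these, 6 were lower, 2 were higher and 11 did not pass the limma threshold, beside 14.8% lower and 13.5% higher of all genes, with a median log2 fold change of -0.075. The relatives that are missing from the 10 genes were among the lower ones. P4ha3, the remaining alpha subunit, was at 8.43 and 7.03 FPKM in the siScr samples and at 3.09 and 2.71 FPKM in the siZBP1 samples, and Loxl4, the remaining lysyl oxidase, was at 4.47 and 5.56 FPKM in the siScr samples and at 2.06 and 1.66 FPKM in the siZBP1 samples. Their log2 fold changes were -1.16 ± 0.12 and -1.07 ± 0.14 (limma adjusted p = 0.00641 and 0.0106), on levels far under those of the genes above.

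Of the other lower genes, P4hb, the shared partner of the alpha subunits, had a log2 fold change of -0.22 ± 0.037 (limma adjusted p = 0.0183). Fkbp10, a prolyl isomerase that works with Serpinh1 and the lysyl hydroxylases, was lower by 0.48 on the log2 scale, from 103 ± 7.95 to 73.4 ± 0.618 FPKM (SD, n = 2 each). Colgalt1, which adds galactose to hydroxylysine, went from 96.2 ± 1.79 to 66.9 ± 0.847 FPKM, and Adamts2, which trims the amino end of procollagen, from 16.5 ± 1.32 to 10.9 ± 0.0432 FPKM (SD, n = 2 each). Higher were Tgm2, a transglutaminase that crosslinks matrix proteins through glutamine, with a log2 fold change of 0.94 ± 0.078 (limma adjusted p = 0.00463), and Tmem38b, a channel of the endoplasmic reticulum, with 0.35 ± 0.084 (limma adjusted p = 0.0418). The members of the prolyl 3-hydroxylase complex were not called, with the enzyme P3h1 at 0.14 (95% confidence interval from 0.019 to 0.26, limma adjusted p = 0.0859, groups not overlapping), Crtap at -0.075 (95% confidence interval from -0.21 to 0.058) and Ppib at 0.058 (from -0.059 to 0.18) on the log2 scale.

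Proteins that bind or position lysyl oxidases in the matrix all passed the threshold where they could be tested, 4 lower and 1 higher of 5, against 14.8% and 13.5% of all genes. Fibulin 5 (Fbln5) and fibulin 4 (Efemp2), which tether Loxl1 and Lox to elastic fibres, fell with log2 fold changes of -1.35 ± 0.077 and -1.01 ± 0.087 (limma adjusted p = 0.00277 and 0.00494). Postn, which promotes the activation of Lox by Bmp1, had -1.22 ± 0.083 (limma adjusted p = 0.00343), and fibromodulin (Fmod), which guides Lox on collagen fibrils, had -1.81 ± 0.20 (limma adjusted p = 0.00789). Fibronectin (Fn1), which also binds Lox, was higher, from 1734 ± 30.2 to 2521 ± 26.1 FPKM (SD, n = 2 each). Elastin itself (Eln) was at 0.119 and 0.0628 FPKM in the siScr samples and listed at 0 in both siZBP1 samples, too low to be tested.

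Genes that supply copper to the lysyl oxidases were higher in siZBP1 cells. Of 7 copper and ascorbate genes, 5 were tested, and 3 of them were higher and 0 lower, against 13.5% and 14.8% of all genes. At an unadjusted limma p under 0.05 the counts were also 3 and 0. The copper pump Atp7a, which loads copper onto secreted enzymes, was at 16.1 and 15.0 FPKM in the siScr samples and at 22.0 and 22.0 FPKM in the siZBP1 samples. Both siZBP1 values were higher, with a log2 fold change of 0.48 ± 0.058 (limma adjusted p = 0.00923). The copper importer Slc31a1 and the copper chaperone Atox1 had log2 fold changes of 0.31 and 0.30, while the ascorbate transporter Slc23a2 was at -0.086 (95% confidence interval from -0.20 to 0.030).

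The markers of the cells present differed between the groups as well. Of 11 tested mesenchymal markers limma called 6 lower and 0 higher (7 and 0 at an unadjusted p under 0.05), with a median of -0.44 on the log2 scale. Of 14 macrophage markers it called 9 higher and 0 lower (10 and 0 at an unadjusted p under 0.05), with a median of 0.33. The shares of all genes called were 14.8% lower and 13.5% higher. Col1a1 is on both the mesenchymal and the collagen list. Vim, by contrast, had a log2 fold change of 0.023 (95% confidence interval from -0.11 to 0.15). Cxcl12, a chemokine of marrow stroma, had the largest fall among the mesenchymal markers (-2.81), and Mrc1, the mannose receptor of macrophages, the largest rise among the macrophage markers (1.25). The part of a shift between these cells in the changes of the 10 genes was not tested.

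**Figure D5:**
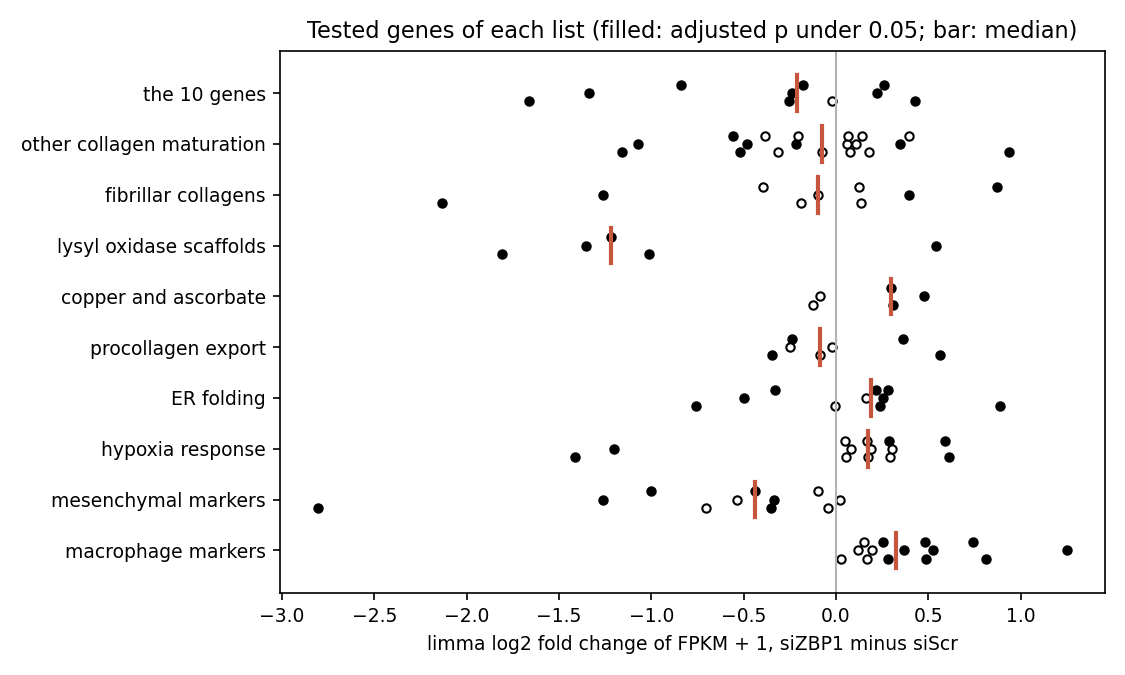
Limma log2 fold change of FPKM + 1 (siZBP1 minus siScr) of each tested gene of the 10 genes and of 9 other lists; each point is a gene, filled where the adjusted p was under 0.05, and the red bar is the list's median. The lysyl oxidase scaffolds have the lowest median (-1.22), and every tested macrophage marker lies above 0.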

How the data were processed

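RNA-seq of 4 mBMSC samples (2 siScr, 2 siZBP1, grouped by their titles) was analysed. The authors prepared TruSeq RNA libraries, mapped reads to mm10 with Tophat and deposited FPKM values per gene, extracted with HTSeq per the study's methods, while the submitters' processing notes name TopHat and Cufflinks. The annotation, any filter, the use of strand and the read numbers are not given in the sources used here. The deposited group means equal the replicate means and were not used. A spreadsheet had turned 27 gene names into dates, none of them a gene named here.

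In R 4.3.3, log2(FPKM + 1) of the 11959 genes averaging 1 FPKM or more was fitted with limma 3.58.1, the prior variance following the mean, with Benjamini-Hochberg adjustment. The code was first run on simulated data with the same spread for every gene and changes larger than those of all 10 genes but Serpinh1. That run does not bear on smaller changes or on the variance trend. A pseudocount of 1 understates the change of low genes. Families were compared with exact permutation tests. Python 3.11.15, pandas 2.3.3 and matplotlib 3.10.9 were used. Positions came from GENCODE M21 (GRCm38, the build of mm10), and 5 of the 10 genes matched a RefSeq promoter window. Of the titles' replicate numbers, nothing says that they pair samples. Alternatives were other pseudocounts, filters, scalings and variance models, a replicate block and leaving out each sample.

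The 10 genes, the lists and the tests were chosen with earlier results of these data known. Named are all 10 genes and Zbp1, every called gene of the collagen maturation, scaffold and copper and ascorbate lists, the 2 largest rises and 2 largest falls of the other lists, and the 3 genes whose pattern was nearest to that of the largest fall and of the largest rise. Col1a2, Col5a1, Pdgfra, Thy1, Mia3, P3h1, Crtap, Ppib, Slc23a2, Eln, Htra2, Znhit1, Hspa5, Pecam1, Cdh5, Tek, Emcn, Adipoq, Plin1 and Cidec were chosen after their values were seen.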

Additional observations from a re-analysis of the deposited data

How the results depend on the processing

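Under the 9 settings that kept all samples, Serpinh1, Loxl1, Loxl3 and P4ha2 stayed past the limma threshold in 9 of 9, P4ha1, Plod1 and Plod3 in 8, Plod2 in 7 and Lox in 5, and Loxl2 in 0. No log2 fold change changed sign except that of Loxl2, to 0.0078 with quantile normalization and to 0.044 without siScr replicate 1, its range being -0.088 to 0.044 with samples left out. With no variance trend the counts among the 10 genes were 3 lower and 1 higher, against 12.7% and 10.3% of all genes. Leaving out samples gave 0 to 4 lower and 0 to 2 higher of them, and 23 to 1297 lower and 22 to 1019 higher of all genes. Such a fit takes the spread of a lone sample from the other group. For Zbp1 the log2 fold change ranged from -2.79 to -2.33 with samples left out. Genes over 1.5-fold numbered 2249 lower and 1750 higher. Among genes averaging 1 FPKM or more these were 1035 and 503, and 867 and 365 with 1 added to both means. Replicate numbers were used as a block in 1 fit, which gave 1654 lower and 1465 higher genes, 5 lower and 3 higher of the 10, and took Lox to an adjusted p of 0.0841. Deviations of same-numbered samples had a correlation of -0.063 over 11959 genes, so the numbers were not taken to pair the samples. List medians moved beyond the spread between replicates for collagen maturation (-0.14) and procollagen export (-0.053) among genes averaging 5 FPKM or more (where no endothelial marker was left to test), for the single endothelial gene with a pseudocount of 0.1 (0.295) and with quantile normalization (0.305), and for the macrophage markers with quantile normalization (0.401) and with samples left out (0.283 to 0.373), and that of the copper and ascorbate genes ranged from 0.227 to 0.308 with samples left out. With Col1a1 left out of the collagen chains, chosen after seeing the data, the ratio of levels per collagen (siZBP1 over siScr) was 0.879 for lysyl oxidases, 1.06 for lysyl hydroxylases, 1.08 for alpha subunits and 0.322 for Serpinh1. The causes of these shifts were not tested, and the read numbers that limit the precision of low genes are unknown.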

Other observations

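General folding genes of the endoplasmic reticulum, where Serpinh1 and the hydroxylases work, moved in both directions. Of 10 such genes 3 were lower and 5 higher by limma, beside 14.8% and 13.5% of all genes, with a median log2 fold change of 0.19. Pdia3, a disulfide isomerase of glycoprotein folding, was at 350 and 361 FPKM in the siScr samples and at 205 and 214 FPKM in the siZBP1 samples, with a log2 fold change of -0.76 ± 0.043 (limma adjusted p = 0.00277). The groups were far apart. Dnajb9, a cochaperone induced by stress of this compartment, had -0.50 ± 0.093 (limma adjusted p = 0.0231), and Sdf2l1 and Dnajb11, of another cochaperone group, had 0.89 and 0.28. Hspa5, the main chaperone of the compartment, had means of 382 ± 4.52 FPKM in siScr and 382 ± 1.15 FPKM in siZBP1 cells (SD, n = 2 each) and a 95% confidence interval of the log2 fold change from -0.10 to 0.097. Of the 7 tested genes for export of procollagen, 2 were higher (Creb3l2 at 0.56 and Sar1b at 0.36 on the log2 scale) and 2 lower (Creb3l1 at -0.35 and Mia3, which loads procollagen into carriers and was chosen after its value was seen, at -0.24), and Klhl12, with the second largest fall in that list, was at -0.25 (limma adjusted p = 0.125).

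P4ha1, P4ha2, Plod2 and Lox are known to respond to hypoxia, and of these P4ha2 and Plod2 were higher and P4ha1 and Lox lower. Other genes known to respond to hypoxia were mostly at positive log2 fold changes, 11 of 13 against 50.8% of all genes. By limma 3 were higher and 2 lower (6 and 2 at an unadjusted p under 0.05), beside 13.5% and 14.8% of all genes, with a median of 0.175 on the log2 scale. Ero1l, an oxidase that drives disulfide formation, was at 42.1 and 40.8 FPKM in the siScr samples and at 16.9 and 18.0 FPKM in the siZBP1 samples, with a log2 fold change of -1.20 ± 0.053 (limma adjusted p = 0.00223). Both siZBP1 values were clearly lower. Adm, the peptide adrenomedullin, had -1.41 ± 0.25, while Pfkfb3, a regulator of glycolysis, and Bnip3, a mitophagy receptor, had 0.61 ± 0.058 and 0.59 ± 0.090 (limma adjusted p = 0.00585 and 0.0143). Only 1 endothelial marker (Kdr, log2 fold change 0.22, limma adjusted p = 0.176) and 1 adipocyte marker (Fabp4, 0.20, limma adjusted p = 0.0834) reached the level for a test, and neither passed it. The genes whose centred log2 pattern over the 4 samples was nearest to that of Serpinh1 were H2-K1, Aebp1 and Adam23, with root mean square differences of 0.0174, 0.0366 and 0.0383, and those nearest to P4ha2 were Tsc22d1, Rerg and Ift46, with 0.0084, 0.00998 and 0.0107.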
